A study of Mus musculus with 6 samples.

Results

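The 10 genes described here encode regulators of mitochondrial biogenesis, out of 17558 genes in the deposited table. They were taken by name: the PGC-1 coactivators Ppargc1a, Ppargc1b and Pprc1, the estrogen-related receptors Esrra and Esrrg, the nuclear respiratory factors Nrf1 and Gabpa, the mitochondrial transcription factor Tfam, and the receptors Ppara and Ppard. RNA was sequenced from C2C12, an immortalized mouse line whose myoblasts leave the cell cycle and fuse to myotubes in low serum. All cells had been moved from medium with 10% fetal bovine serum to medium with 2% horse serum and insulin, transferrin and selenium, and were harvested after 48 h. There were 3 groups of 2 libraries, each stably carrying a short hairpin RNA: a scrambled one (shScr), one against the Pkm1 isoform of pyruvate kinase (shPkm1, genotype label Pkm1 Knockdown) or one against the Pkm2 isoform (shPkm2, label Pkm2 Knockdown). The shScr cells are labelled WT but carry a hairpin too. Hairpin sequences, the vector, and whether the cells were single clones or pools are not given in the sources used here.

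Mitochondria are made from proteins encoded almost entirely in the nucleus. The PGC-1 coactivators do not bind DNA themselves. They dock on DNA-binding factors (the estrogen-related receptors or ERRs, the PPAR receptors, NRF1 and GABP) and raise transcription of genes for respiration, fatty acid oxidation and the copying of mitochondrial DNA. NRF1 and GABP act on Tfam, whose product packages and transcribes mitochondrial DNA. In muscle, mitochondrial content rises as myoblasts become myotubes, and Ppargc1a is known as the coactivator induced by exercise.

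The libraries held between 18216896 and 19796036 estimated counts. The chi-square per degree of freedom between the libraries of a group was 31.6 for the shScr pair, 6.08 for shPkm1 and 6.82 for shPkm2, so replicates differed by more than sampling noise. Nothing says that they came from separate cultures, so p-values measure the spread between these libraries, which may be technical. The labels were checked on the target: the Pkm1 transcript (NM_001253883.1) stood at 546 and 589 TPM in shScr, 243 and 218 in shPkm1 and 254 in each library labelled shPkm2. The Pkm2 transcript (NM_011099.3) stood at 1073 and 1517, 1278 and 1379, and 2700 and 2630 TPM. It was not lower under the hairpin named for it, so that group is called by its label. Myoblast and myotube markers were present. The summed TPM of 8 myoblast identity genes was 3696 and 4050 in shScr, 3227 and 3376 in shPkm1 and 1482 and 1387 in the shPkm2-labelled libraries. That of 12 myotube markers was 32601 and 25037 in shScr, 12803 and 13807 in shPkm1 and 993 and 913 in the shPkm2-labelled libraries. Des is in both of these lists, here and below. For 12 proliferation markers it was 239 and 313, 576 and 557, and 1754 and 1660. No marker of these lists was at 0 in all 6 libraries. The contrasts below run along the same groups, and the part of these values in them was not tested. Of other cell types, 5 immune and 6 endothelial markers each summed to at most 5.93 TPM. Adipoq, a defining adipocyte gene, was at most 0.08 TPM, and the adipocyte sum of 6.11 to 20.04 TPM was mostly Cebpa. The 8 fibroblast markers summed to 1038 and 1273 TPM in shScr, 5632 and 5462 in shPkm1 and 886 and 761 in the shPkm2-labelled libraries, nearly all of it the collagens Col1a1 and Col3a1, while Tcf21 was at 0.

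Levels were compared between genes in TPM, which is scaled to transcript length. In shScr the order was Esrra (52.5 ± 1.07 TPM, SD, n = 2), Ppard (38.8 ± 2.90), Tfam (20.2 ± 2.73), Pprc1 (19.5 ± 2.36), Nrf1 (13.5 ± 1.29), Gabpa (11.4 ± 0.431), Ppargc1b (6.68 ± 0.735) and Ppargc1a (0.46 ± 0.0424). Esrrg and Ppara were last, at 0.04 and 0.03 TPM. The libraries of Tfam and Pprc1 overlapped, as did those of Esrrg and Ppara. All other neighbours in this order were apart.

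The order was different with the Pkm hairpins. Ppard was first in both groups, at 53.5 ± 1.74 TPM in shPkm1 and 61.3 ± 2.84 in the shPkm2-labelled libraries. Esrra was second, at 32.8 ± 3.00 and 30.4 ± 0.799 TPM. The TPM of Ppard divided by that of Esrra was 0.709 and 0.766 in the shScr libraries, 1.70 and 1.57 in shPkm1, and 2.12 and 1.91 in the shPkm2-labelled libraries. The 3 groups did not overlap in this ratio, which does not depend on library scaling. With 2 libraries against 2 a permutation test cannot go below p = 0.333, so no test is given for it. Esrra and Pprc1 (28.2 ± 2.53 TPM) overlapped in the shPkm2-labelled libraries. There Tfam, Nrf1 and Gabpa, at 24.7, 24.3 and 23.6 TPM, also overlapped each other.

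**Figure D1:**
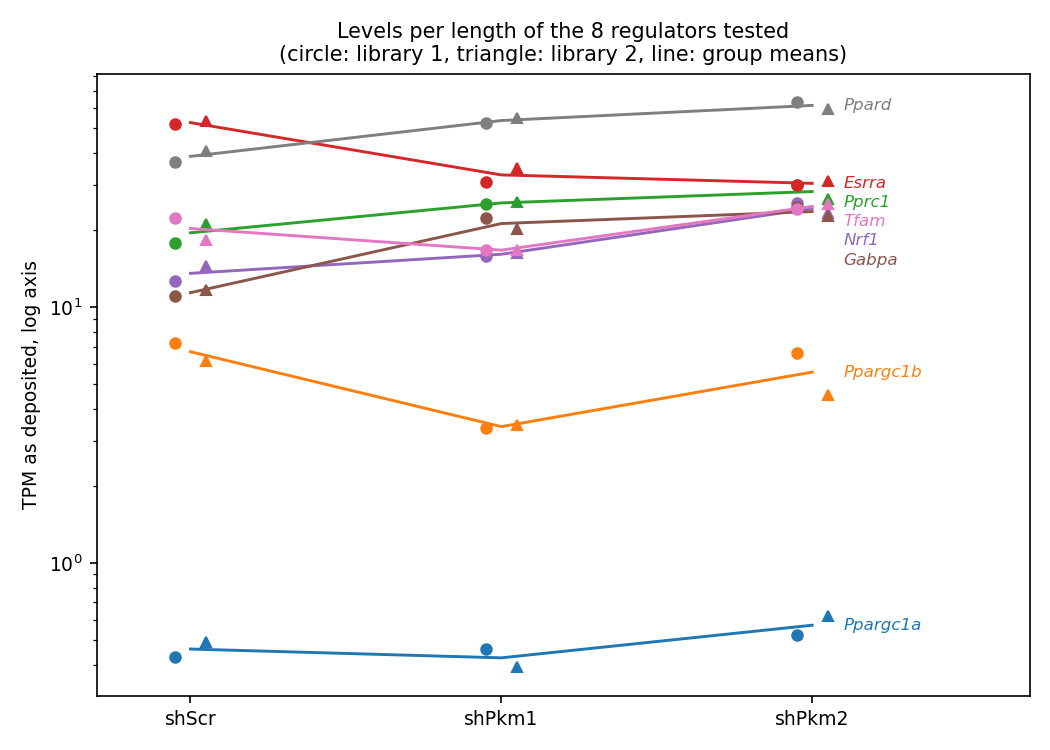
Deposited TPM (log axis) of the 8 regulators tested, by hairpin group, with circles for library 1, triangles for library 2 and lines through group means. Esrra is highest in shScr and Ppard in both Pkm hairpin groups, while Ppargc1a stays between 0.39 and 0.62 TPM.

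The ERR, PPAR and PGC-1 families were each carried mainly by 1 member. GABP is not such a family but a complex of different subunits. Gabpa, Gabpb1 and Gabpb2 held 44.3%, 45.2% and 10.4% of their summed TPM in shScr. Esrra made up 99.4% or more of the summed TPM of Esrra, Esrrb and Esrrg in each library. Among the PPAR receptors Ppard held 92.8% to 96.1% of the summed TPM, with Pparg next and Ppara at 0.142% or less. Pprc1 held 73.0 ± 4.29% of the summed TPM of the PGC-1 coactivators in shScr, 86.9 ± 0.158% in shPkm1 and 82.3 ± 2.01% in the shPkm2-labelled libraries. Ppargc1b held 25.2 ± 4.34%, 11.6 ± 0.0288% and 16.0 ± 2.41%. Ppargc1a held between 1.32% and 1.96% in all 6 libraries, so these cells had little message for the best-known member of the family in any group.

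Changes between groups were tested with edgeR's quasi-likelihood test on counts, fitted to all genes and all 6 libraries, with Benjamini-Hochberg adjustment over 12643 genes and a threshold of 0.05. Levels from here on are CPM, counts scaled to library size with the trimmed mean of M values, or TMM. Of the 10 regulators 8 passed the filter on low counts, and Ppara and Esrrg did not. In shPkm1, 4 of the 8 passed the threshold against shScr, 1 higher (Gabpa) and 3 lower (Ppargc1b, Esrra and Tfam). Among all tested genes 63.1% passed, 31.8% higher and 31.4% lower. For the shPkm2-labelled libraries against shScr it was also 4 of 8, with Gabpa and Nrf1 higher and Ppargc1b and Esrra lower, where 68.0% of all genes passed, 33.9% higher and 34.2% lower. Between the Pkm hairpin groups 3 of 8 passed (Ppargc1b, Nrf1 and Tfam), all higher in the shPkm2-labelled libraries, against 53.0% of all genes and 25.7% in that direction. The median log2 fold change of the 8 was -0.39, -0.02 and 0.22 in the 3 comparisons, beside -0.00015, 0.0074 and 0.0046 over all tested genes. These shares of the regulators lie near or below the background and are not read as a result about them. Both comparisons with shScr share the control libraries.

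**Figure D2:**
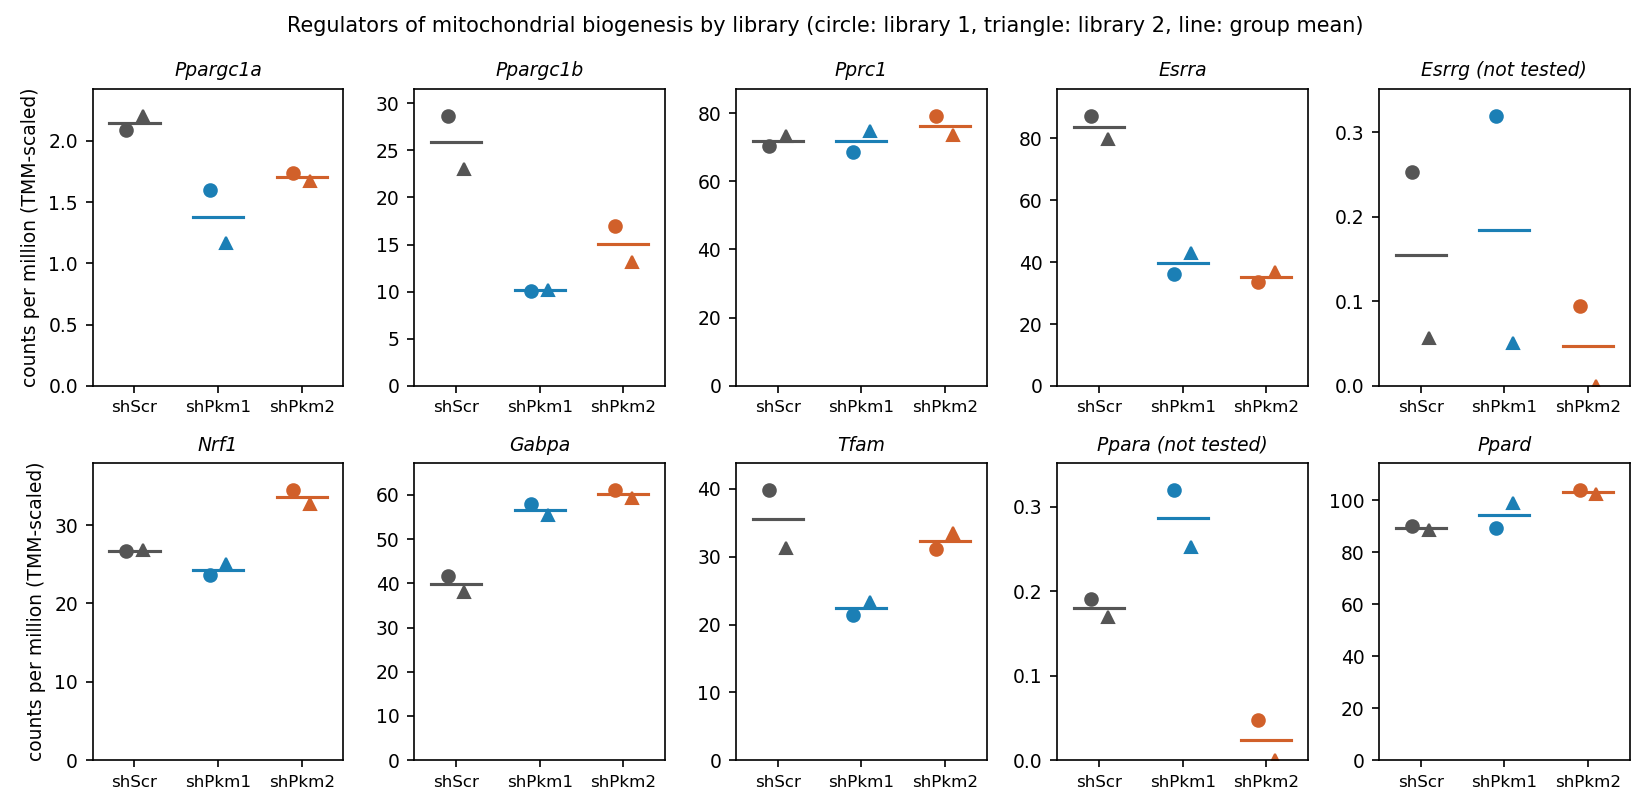
CPM (TMM-scaled) of each of the 10 regulators in the 6 libraries, from 0 on each axis, with lines at group means. Esrra and Ppargc1b are lower and Gabpa higher in all 4 Pkm hairpin libraries than in both shScr libraries.

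Among the coactivators, Ppargc1b (NCBI gene 170826, chromosome 18, 61291445 to 61400756, minus strand, GRCm38), which encodes PGC-1 beta, changed most. It stood at 28.6 and 23.0 CPM in shScr, 10.06 and 10.2 in shPkm1, and 17.0 and 13.1 in the shPkm2-labelled libraries. The 3 groups did not overlap, with shPkm1 lowest. It fell 2.54-fold in shPkm1 (log2 fold change -1.35, SE 0.154, adjusted p 6.88e-06). In the shPkm2-labelled libraries it fell 1.71-fold (-0.78, SE 0.147, adjusted p 0.000391). The direct contrast put it 0.57 higher on the log2 scale in the shPkm2-labelled libraries (SE 0.157, adjusted p 0.00776). That difference was lost without shPkm1 library 1 (adjusted p 0.0591), shPkm1 library 2 (0.0514) or shPkm2 library 1 (0.136, with a log2 fold change of 0.36), with adjusted p from 9.15e-05 to 0.136 over all alternatives. In the shPkm2-labelled libraries the fall was also lost on TPM (-0.24, adjusted p 0.226). In bulk RNA fewer cells that express a gene and less RNA per cell cannot be told apart, here and in all results that follow. Of its 2 transcripts, NM_133249.2 held between 75.7% and 82.7% of the TPM in each library.

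Ppargc1a (gene 19017, chromosome 5, 51454249 to 52115853, minus strand) encodes PGC-1 alpha. Its counts were 33 and 39 in shScr, 30 and 23 in shPkm1 and 37 and 35 in the shPkm2-labelled libraries. Scaled to library size, that was 2.09 and 2.20 CPM, 1.60 and 1.16, and 1.74 and 1.67. Both Pkm hairpin groups lay below shScr, but the change did not pass the threshold in shPkm1 (-0.64, 95% interval -1.29 to 0.0061, adjusted p 0.0777) or in the shPkm2-labelled libraries (-0.33, interval -0.95 to 0.29, adjusted p 0.318). Without shPkm1 library 2 the former was -0.42 (adjusted p 0.367). On TPM the values were -0.035 (adjusted p 0.790) and 0.10 (adjusted p 0.401), and the shPkm1 libraries overlapped shScr. The intervals include both no change and a fall of more than 0.9 on the log2 scale. With so few counts the deposited values moved between its 5 transcripts from library to library. NM_008904.2 held 100% of the gene's TPM in shPkm1 library 1 and 0% in 4 of the other 5 libraries, so no transcript is compared.

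Pprc1 (gene 226169, chromosome 19, 46056526 to 46072909, plus strand) encodes the third coactivator of the family, which is known to respond to growth signals. It stood at 70.3 and 73.2 CPM in shScr, 68.6 and 74.7 in shPkm1, and 79.1 and 73.5 in the shPkm2-labelled libraries. The shPkm1 libraries span the shScr ones, and the shPkm2-labelled libraries lie just above them. No change passed the threshold (-0.0021 with a 95% interval of -0.21 to 0.21 in shPkm1, and 0.09 with an interval of -0.12 to 0.30 in the shPkm2-labelled libraries, adjusted p 0.988 and 0.431). The larger share of Pprc1 in the family was measured in TPM and not under this scaling. In TPM Pprc1 stood at 19.5 in shScr, 25.5 in shPkm1 and 28.2 in the shPkm2-labelled libraries. Ppargc1b stood at 6.68, 3.405 and 5.56 TPM. Its shPkm2-labelled libraries (6.59 and 4.53 TPM) overlapped those of shScr (7.2 and 6.16 TPM).

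Of the DNA-binding partners, Esrra (gene 26379, chromosome 19, 6910977 to 6922048, minus strand) encodes ERR alpha, an orphan receptor that PGC-1 coactivators use on respiratory genes. Its level was 87.2 and 79.8 CPM in shScr, 36.2 and 43.0 in shPkm1, and 33.7 and 36.8 in the shPkm2-labelled libraries. Each Pkm hairpin library held less than any shScr library, and the Pkm hairpin groups overlapped. Esrra fell 2.11-fold in shPkm1 (-1.08, SE 0.112, adjusted p 2.92e-06) and 2.37-fold in the shPkm2-labelled libraries (-1.24, SE 0.112, adjusted p 4.74e-07). The direct contrast was -0.17 with an interval of -0.41 to 0.08 (adjusted p 0.235). Both falls against shScr passed the threshold in all 16 alternatives, with log2 fold changes from -1.20 to -0.67 and from -1.31 to -0.77. The transcript NM_007953.2 held 82.9% to 98.3% of its TPM. Esrrg, which encodes ERR gamma, had 4 and 1 counts in shScr, 6 and 1 in shPkm1 and 2 and 0 in the shPkm2-labelled libraries. Most of these are at or under the floor of 3 counts, so no fold is given.

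Nrf1 (gene 18181, chromosome 6, 30047985 to 30153458, plus strand) encodes nuclear respiratory factor 1, which acts on promoters of respiratory chain genes. It stood at 26.7 and 26.8 CPM in shScr, 23.6 and 25.0 in shPkm1, and 34.5 and 32.7 in the shPkm2-labelled libraries. Only the last group lay above shScr. The rise was 1.26-fold (0.33, SE 0.103, adjusted p 0.0122), and without shPkm2 library 1 it missed the threshold (0.30, adjusted p 0.0922, with a range of 0.000142 to 0.0922 over all alternatives). On TPM the rise was 0.80. In shPkm1 the log2 fold change was -0.14 (interval -0.36 to 0.09, adjusted p 0.272), which turned to 0.057 with library totals only and 0.23 on TPM. The difference between the Pkm hairpin groups was 0.47 (SE 0.103, adjusted p 0.00189).

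Gabpa (gene 14390, chromosome 16, 84834891 to 84863783, plus strand) encodes the DNA-binding subunit of GABP, also known as NRF-2. It stood at 41.6 and 38.1 CPM in shScr, 58.0 and 55.4 in shPkm1, and 61.1 and 59.2 in the shPkm2-labelled libraries. All 4 Pkm hairpin libraries were above both shScr libraries. Gabpa rose 1.42-fold in shPkm1 (0.51, SE 0.0993, adjusted p 0.000617) and 1.51-fold in the shPkm2-labelled libraries (0.59, SE 0.0989, adjusted p 0.000134). It was called in both comparisons in all 16 alternatives, from 0.45 to 0.84 and from 0.53 to 0.99. The Pkm hairpin groups differed by 0.09 (interval -0.12 to 0.29, adjusted p 0.477). Of the partner subunits, Gabpb2 rose by 0.80 (adjusted p 9.58e-05) in shPkm1 and by 1.29 (adjusted p 7.27e-07) in the shPkm2-labelled libraries, while Gabpb1 was at 0.11 (adjusted p 0.437; on TPM 0.47, adjusted p 0.00647) and 0.45 (adjusted p 0.00301).

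Tfam (gene 21780, chromosome 10, 71225468 to 71238328, minus strand) stood at 39.8 and 31.3 CPM in shScr, 21.5 and 23.4 in shPkm1, and 31.1 and 33.5 in the shPkm2-labelled libraries. The shPkm1 libraries were below all others, and the shPkm2-labelled libraries overlapped shScr. Tfam fell 1.58-fold in shPkm1 (-0.66, SE 0.127, adjusted p 0.000541), a call lost on TPM (-0.26, adjusted p 0.104). Against shScr the shPkm2-labelled libraries gave -0.14 (interval -0.40 to 0.13, adjusted p 0.342), and without shScr library 2, the lower control, this was -0.30 and past the threshold (adjusted p 0.0254, range 0.0254 to 0.755). It turned to 0.19 with library totals only and 0.28 on TPM. The Pkm hairpin groups differed by 0.53 (SE 0.126, adjusted p 0.00327). The predicted transcript XM_017313918.1 held 62.6% to 70.6% of the TPM and NM_009360.4 the rest, with overlapping shares in the 3 groups.

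Ppard (gene 19015, chromosome 17, 28232754 to 28301469, plus strand) encodes PPAR delta, the main PPAR of skeletal muscle. It stood at 90.01 and 88.6 CPM in shScr, 89.4 and 99.0 in shPkm1, and 103.8 and 102.5 in the shPkm2-labelled libraries. The log2 fold change was 0.08 in shPkm1 (interval -0.13 to 0.29, adjusted p 0.501) and 0.21 in the shPkm2-labelled libraries (interval 3.6e-05 to 0.42, adjusted p 0.0707), neither past the threshold. Ppara, which encodes PPAR alpha, had 3 and 3 counts in shScr, 6 and 5 in shPkm1, and 1 and 0 in the shPkm2-labelled libraries. It was too low for the filter. With no filter the difference between the Pkm hairpin groups had an adjusted p of 0.0389 over 16368 genes, from at most 6 counts in a library.

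**Figure D3:**
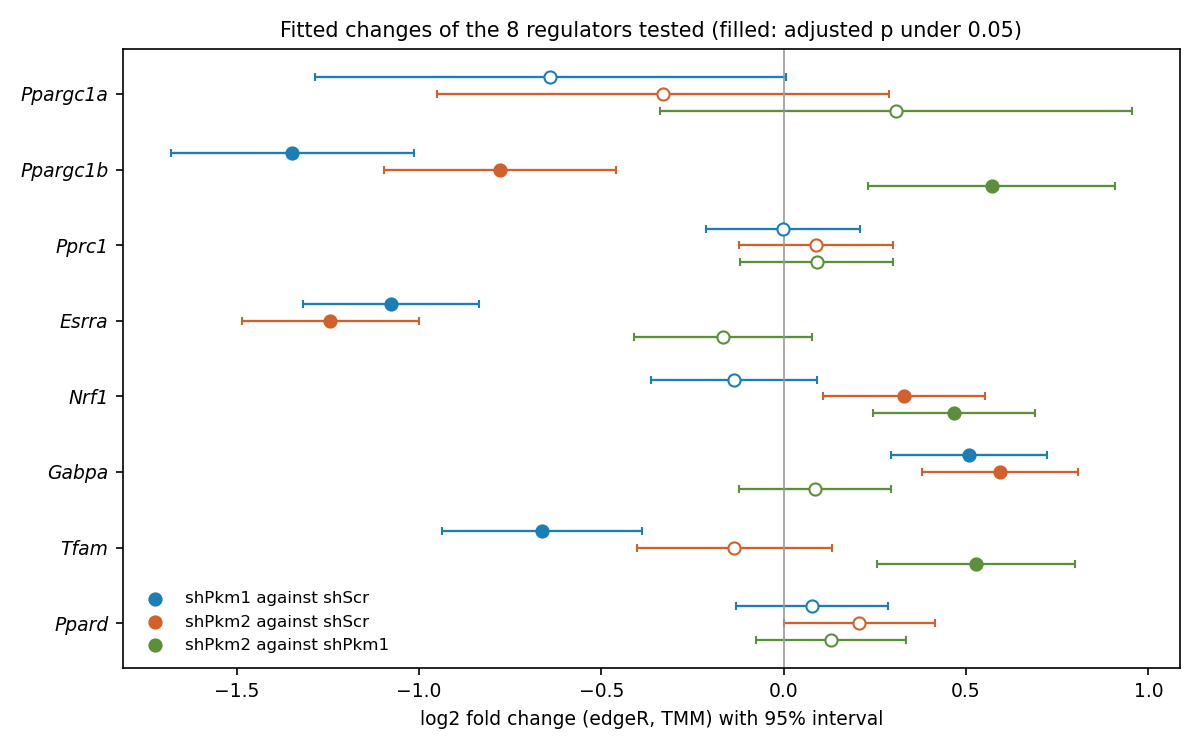
Log2 fold change of the 8 tested regulators with 95% intervals in the 3 comparisons, filled where the adjusted p is under 0.05. Esrra and Ppargc1b lie left of 0 and Gabpa right of 0 against shScr, and Ppargc1b, Nrf1 and Tfam separate the Pkm hairpin groups.

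The scaling of the libraries decided some of these calls. With library totals only, the median of all tested genes was 0.19 in shPkm1 and 0.33 in the shPkm2-labelled libraries, and on log2(TPM + 1) in limma it was 0.31 and 0.36. Values relative to TMM are therefore lower than the same values in TPM. The background moves with them. With library totals only, 40.5% of all genes were higher and 21.0% lower in shPkm1, 48.2% and 21.4% in the shPkm2-labelled libraries, and 33.9% and 21.3% between the Pkm hairpin groups. On TPM the shares against shScr were 49.0% and 13.7%, and 52.4% and 16.8%. List counts given below at these scalings stand beside these shares. Ppard passed the threshold in shPkm1 with library totals only (0.27, adjusted p 0.0311) and on TPM (0.46, adjusted p 0.00315; range over all alternatives 0.00315 to 0.966). In the shPkm2-labelled libraries it did so at 0.53 (adjusted p 0.00034) and 0.65 (adjusted p 0.000208; range 0.000208 to 0.219). Pprc1 passed there at 0.41 (adjusted p 0.00331) and 0.52 (adjusted p 0.00375; range 0.00331 to 0.821). In shPkm1 its change turned from -0.0021 to 0.38 on TPM (adjusted p 0.0245; range 0.0245 to 0.987). On TPM the call was lost for Tfam in shPkm1 and for Ppargc1b in the shPkm2-labelled libraries at -0.24 (adjusted p 0.226). That fall of Ppargc1b was also lost on log2(FPKM + 1), at -0.32 (adjusted p 0.0700). Between the Pkm hairpin groups Ppard passed with library totals only (0.26, adjusted p 0.0400) and on log2(FPKM + 1) (0.26, adjusted p 0.0343). Its adjusted p there ranged from 0.0343 to 0.783 over all alternatives. Esrra, Gabpa and, in shPkm1, Ppargc1b kept their direction and their call under each scaling tried.

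**Figure D4:**
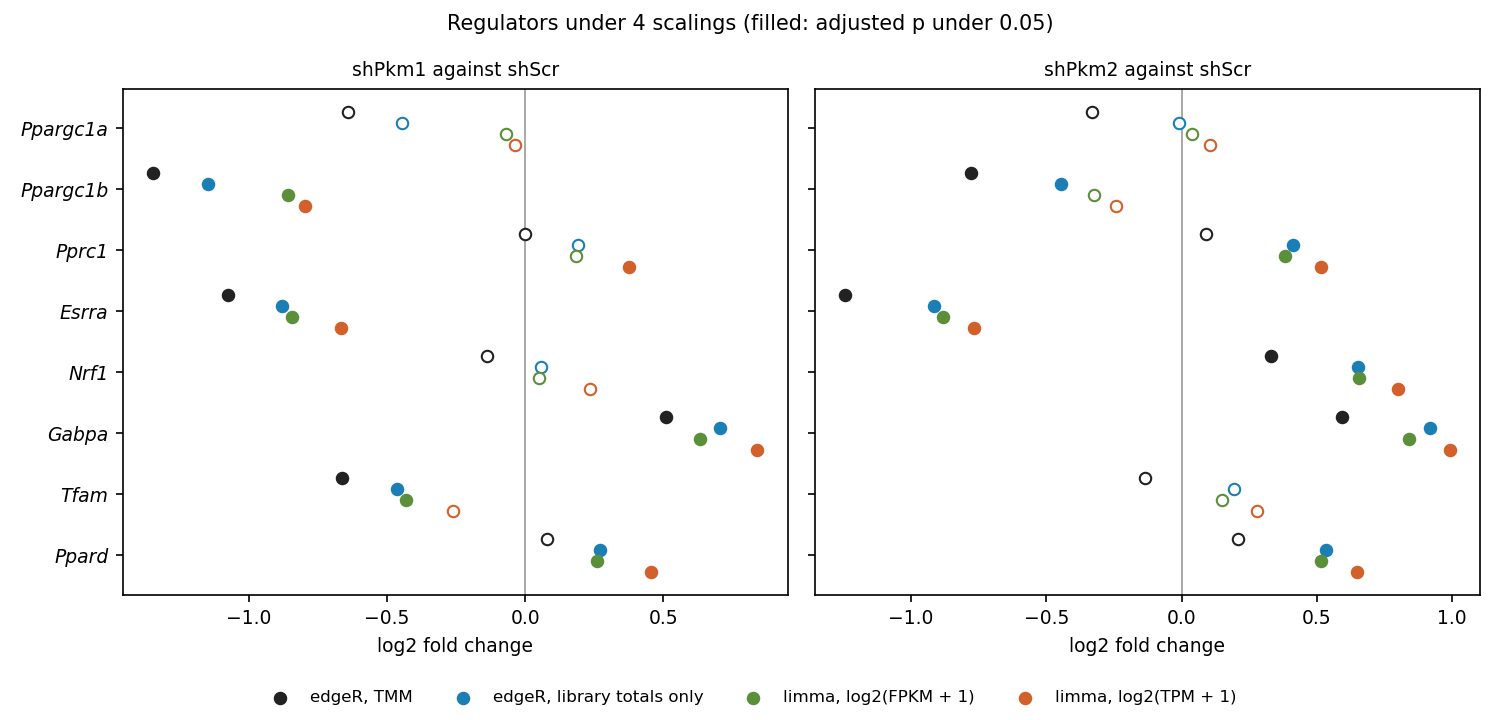
Log2 fold change of the 8 regulators against shScr under TMM, library totals, FPKM and TPM, filled where the adjusted p is under 0.05. Values shift to the right from TMM to TPM, and Esrra stays below 0 and Gabpa above 0 throughout.

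Promoter sequence was examined because some of these genes are known to be targets of the others. RefSeq windows (GRCm38.p6, 250 bases before to 50 after an annotated transcription start) matched 9 of the 10 regulators. The motifs searched on both strands were GCATGCGC for NRF1, CCGGAAGT for GABP, AAGGTCA for ERR, the PPAR element of 2 copies of AGGTCA with any 1 base between them and the palindrome CAGCTG, an E-box bound by MyoD. The ERR motif contains AGGTCA too, so these overlap. They were held by 2.71%, 3.89%, 4.72%, 0.0396% and 16.3% of all 32851 windows. The windows of Esrra and Ppara held the NRF1 motif, that of Tfam the GABP motif, and those of Esrra and Ppard the E-box. The other regulators with a window were Ppargc1a, Pprc1, Esrrg, Nrf1 and Gabpa, in whose windows none of these exact letters were found. The sites of NRF1 and GABP, and not those of the E-box, are shown with the motif in capitals, on the strand of the gene. Whether NRF1 or GABP acts on these genes here was not tested.
Esrra, chr19:6921824-6921853, minus strand, NRF1 motif: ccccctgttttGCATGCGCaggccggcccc
Tfam, chr10:71238073-71238102, minus strand, GABP motif: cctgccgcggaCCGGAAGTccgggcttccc
Ppara, chr15:85735736-85735765, plus strand, NRF1 motif: ggctcggtggcGCATGCGCgcggactaggg
The motifs start 34, 47 and 29 bases before the start on which each window is built. That start is not the outer end of the gene: all 3 sites lie inside the spans of Esrra and Tfam given above and of Ppara (chromosome 15, 85734910 to 85806851). In the GENCODE vM21 annotation of the same build the Esrra site lies in no gene, the Tfam site in an exon (UTR) of Tfam and the Ppara site inside Ppara but in no exon. In Ppara the motif also reads on the other strand, overlapping by 6 bases. These are matches of letters and not measured binding sites.

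By the same test all 12 myotube markers fell in both comparisons with shScr, where 31.4% and 34.2% of all genes were lower. Of the 12 proliferation markers 9 and 12 rose, with 0 lower, where 31.8% and 33.9% of all genes were higher. Of the 8 myoblast identity genes 1 rose and 6 fell in shPkm1, and 2 rose and 5 fell in the shPkm2-labelled libraries, with medians of -0.77 and -1.67. Of the 8 fibroblast markers 5 were tested. In shPkm1 5 rose and 0 fell, with a median of 1.94. In the shPkm2-labelled libraries 1 rose and 4 fell, with a median of -0.87 (library totals only: 1 and 2). The part of these differences in the results for the regulators and the lists was not tested.

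Beyond the 10 regulators, lists of genes that work with them were examined. Of 34 tested partners and upstream regulators (AMPK subunits, cofactors and signalling factors), 12 rose and 10 fell in shPkm1, and 15 rose and 9 fell in the shPkm2-labelled libraries (library totals only: 15 and 3, 21 and 6). Their median log2 fold changes were -0.09 and 0.19. Of all genes 31.8% rose and 31.4% fell in shPkm1 and 33.9% and 34.2% in the shPkm2-labelled libraries. Without shPkm1 library 1 the list had 6 higher and 5 lower in shPkm1. The counts of this list in shPkm1 are near the background and are not read as a result about it. Flcn, which encodes folliculin, a known restraint on PGC-1 and ERR alpha activity, stood at 80.9 and 82.0 CPM in shScr, 24.2 and 23.9 in shPkm1, and 25.8 and 25.9 in the shPkm2-labelled libraries. On the log2 scale it fell by 1.76 in shPkm1 (SE 0.0987, adjusted p 1.20e-08) and by 1.65 in the shPkm2-labelled libraries (SE 0.0977, adjusted p 7.20e-09). Creb1, a factor that acts on the Ppargc1a promoter, rose by 0.98 (adjusted p 3.98e-05) and 1.07 (adjusted p 1.14e-05). Pparg rose in shPkm1 (0.88, adjusted p 0.00641) and Gabpb2 and Prkag2 rose most in the shPkm2-labelled libraries (1.29 and 1.30, adjusted p 7.27e-07 and 9.40e-05).

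AMPK is an energy sensor that activates PGC-1 alpha, and its 7 tested subunit genes went different ways. Prkag3, the gamma subunit of skeletal muscle, stood at 63.3 and 45.3 CPM in shScr, 29.9 and 26.9 in shPkm1, and 0.424 and 0.668 (9 and 14 counts) in the shPkm2-labelled libraries. Its log2 fold changes were -0.93 (adjusted p 1.11e-04) and -6.62 (adjusted p 8.40e-11). Prkaa2, the catalytic subunit prominent in muscle, fell by 2.56 (adjusted p 6.67e-07) in the shPkm2-labelled libraries, where Prkab2 also fell, by 1.03 (adjusted p 1.14e-04), and Prkaa1, the other catalytic subunit, rose by 0.80 (adjusted p 1.05e-05). In shPkm1, Prkaa2 was at -0.65 (adjusted p 0.0144), a call lost with library totals only, on TPM (-0.15, adjusted p 0.380), without shScr library 1 (-0.26, adjusted p 0.208) and without either shPkm1 library (adjusted p 0.0508 and 0.116). The calls of Prkaa1, Prkab1, Prkab2, Prkag1 and Prkag2 in shPkm1 also depended on the scaling or on 1 library, and no direction is given for them there. Prkaa1, Prkab1, Prkab2 and Prkag1 are named to complete the AMPK subunits and were chosen after their values were seen. Between the Pkm hairpin groups 13 partners were higher and 8 lower in the shPkm2-labelled libraries (library totals only: 17 and 7), where 25.7% of all genes were higher and 27.3% lower. The number higher was 8 without shPkm1 library 2 or without shPkm2 library 1. Prkag2 (1.77, adjusted p 1.22e-05) and Sirt1 (1.15, adjusted p 8.51e-06), a deacetylase of PGC-1 alpha, were the highest, and Prkag3 (-5.69) and Prkaa2 (-1.92) the lowest.

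Genes for copying and transcribing mitochondrial DNA, where TFAM acts, had calls in both directions under TMM. Of 25 tested, 6 rose and 10 fell in shPkm1 (8 and 5 with library totals only) and 2 rose and 9 fell in the shPkm2-labelled libraries (10 and 3, and from 0 to 3 higher with 1 library left out). Of all genes 31.8% were higher and 31.4% lower in shPkm1, and 33.9% and 34.2% in the shPkm2-labelled libraries (library totals only: 40.5% and 21.0%, 48.2% and 21.4%). The counts in shPkm1 are near this background and are not read as a result about the list. On TPM 10 rose and 1 fell in shPkm1, beside 49.0% and 13.7% of all genes. In the shPkm2-labelled libraries it was 11 and 0, beside 52.4% and 16.8%. Polrmt, the mitochondrial RNA polymerase, was at 89.8 and 90.00 CPM in shScr, 42.9 and 48.6 in shPkm1, and 59.3 and 57.6 in the shPkm2-labelled libraries. Its fall was largest in shPkm1 (-0.97, SE 0.0995, adjusted p 2.55e-06). Lrpprc, which stabilizes mitochondrial messages, fell by 0.70 (adjusted p 2.03e-04) and 0.66 (adjusted p 2.50e-04), but not on TPM (-0.30 and -0.17, adjusted p 0.0519 and 0.246). Rrm2b, a ribonucleotide reductase subunit, rose by 0.76 (adjusted p 0.0014) and 0.57 (adjusted p 0.00786), and the latter was lost without shPkm2 library 2 (adjusted p 0.0502) and was 0.37 without shScr library 2. Mterf3 rose by 0.69 in shPkm1 (adjusted p 0.00101) and by 0.36 in the shPkm2-labelled libraries (adjusted p 0.0407), where it was lost without any 1 library except shScr library 1. Top1mt fell by 0.65 in the shPkm2-labelled libraries (adjusted p 6.28e-04), though not on TPM (-0.19, adjusted p 0.275). Between the Pkm hairpin groups 3 were higher and 5 lower (6 and 4 with library totals only), and from 1 to 5 higher with 1 library left out, beside 25.7% and 27.3% of all genes. Mterf2 (0.85, adjusted p 0.00571) and Mgme1 (0.71, adjusted p 0.00175) were the highest there and Mterf4 (-0.83) and Primpol (-0.73) the lowest. Mterf2 lost its call without shPkm2 library 2 (adjusted p 0.0730).

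Respiratory chain and Krebs cycle genes that are known targets of PGC-1, ERR and NRF1 fell together. All 28 tested members fell in shPkm1 and 27 of 28 in the shPkm2-labelled libraries, with 0 higher. Of all genes 31.4% and 34.2% were lower. With library totals only 25 and 18 members fell and 0 rose, beside 21.0% and 21.4% of all genes lower. On TPM 21 and 15 fell and 0 and 1 rose, beside 13.7% and 16.8% lower. Median log2 fold changes of the list were -0.84 and -0.76. Their summed TPM was 13534 and 13631 in shScr, 9349 and 9502 in shPkm1, and 10142 and 10189 in the shPkm2-labelled libraries. The largest falls were in genes of muscle fibres. Cox8b, a muscle subunit of cytochrome c oxidase, stood at 66.6 and 44.0 CPM in shScr, 3.99 and 4.95 in shPkm1, and 0.188 and 0.286 (4 and 6 counts) in the shPkm2-labelled libraries. Its log2 fold changes were -3.62 (SE 0.201, adjusted p 1.08e-08) and -7.82 (SE 0.309, adjusted p 1.58e-10). Cox6a2, another muscle subunit, fell by 2.22 (adjusted p 1.76e-05) in shPkm1, and Mb, which encodes the oxygen store myoglobin, fell by 7.93 (adjusted p 2.26e-12) in the shPkm2-labelled libraries.

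The general members Cs and Cycs changed less than these muscle genes. They are named as the highest of the list between the Pkm hairpin groups and do not stand for all general members. In shPkm1 both fell by more than the list median of -0.84. In the shPkm2-labelled libraries Cs had the smallest fall of the list. Cs, citrate synthase, a common measure of mitochondrial content, was at 655 and 593 CPM in shScr, 338 and 339 in shPkm1, and 547 and 567 in the shPkm2-labelled libraries. It fell in shPkm1 (-0.88, SE 0.106, adjusted p 1.08e-05) and had no call in the shPkm2-labelled libraries (-0.16, adjusted p 0.180), where the sign turned with library totals only (0.16, adjusted p 0.163) and on TPM (0.29, adjusted p 0.0148). Cycs, cytochrome c, fell by 1.29 and 0.62 (adjusted p 5.84e-07 and 2.28e-04), the latter lost on TPM (-0.16, adjusted p 0.227). Between the Pkm hairpin groups 6 members were higher and 6 lower (11 and 6 with library totals only, and 3 higher without shPkm1 library 1), near the 25.7% and 27.3% of all genes. Cs (0.72, adjusted p 7.76e-05) and Cycs (0.67, adjusted p 2.10e-04) were the highest, and Mb (-5.97) and Cox6a2 (-5.00) the lowest.

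Of 21 tested fatty acid genes that PPAR receptors act on, 1 rose and 15 fell in shPkm1 and 5 rose and 14 fell in the shPkm2-labelled libraries (library totals only: 2 and 12, 6 and 13). The background was 31.8% higher and 31.4% lower, and 33.9% and 34.2%. Without shScr library 1 the number higher in shPkm1 was 2. Medians of the list were -0.75 and -0.81. Fabp3, the fatty acid binding protein of muscle, fell by 3.19 (adjusted p 9.87e-09) and 4.11 (adjusted p 6.65e-10). Acadl fell by 1.43 in shPkm1 (adjusted p 2.12e-07), where Cpt1a was the 1 member to rise (0.74, adjusted p 2.25e-04). Pdk4, a kinase that shuts off pyruvate dehydrogenase, was at 11.9 and 13.2 CPM in shScr, 5.91 and 5.92 in shPkm1, and 42.0 and 39.2 in the shPkm2-labelled libraries. It fell by 1.09 in shPkm1 (adjusted p 1.61e-05), rose by 1.69 in the shPkm2-labelled libraries (adjusted p 3.36e-08) and differed by 2.78 between them (SE 0.126, adjusted p 1.06e-09). Lpl, lipoprotein lipase, rose by 1.73 in the shPkm2-labelled libraries (adjusted p 2.13e-06), and Ucp2 fell there by 2.92 (adjusted p 1.14e-09). Between the Pkm hairpin groups 6 were higher and 6 lower (7 and 6 with library totals only; 25.7% and 27.3% of all genes), Pdk4 and Lpl (1.77) the highest and Ucp2 (-1.82) and Fabp3 (-0.92) the lowest.

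Lists for other parts of the organelle were read in the same way, against the same background of 31.8% of all genes higher and 31.4% lower in shPkm1, and 33.9% and 34.2% in the shPkm2-labelled libraries. Of 78 mitochondrial ribosome genes, 2 rose and 56 fell in shPkm1 and 2 rose and 47 fell in the shPkm2-labelled libraries, with medians of -0.49 and -0.38. Without shPkm1 library 1 the number lower in shPkm1 was 37. With 1 library left out the number higher ran from 0 to 4 in shPkm1 and from 1 to 6 in the shPkm2-labelled libraries, the highest of both without shScr library 1. With library totals only the counts were 3 and 40, and 14 and 24 (all genes: 40.5% and 21.0%, 48.2% and 21.4%). On TPM they were 7 and 19, and 21 and 16 (all genes: 49.0% and 13.7%, 52.4% and 16.8%). In TPM their sum was between 6455 and 7258 in all 6 libraries. Mrpl57 fell most, by 1.20 and 1.23 (adjusted p 7.21e-07 and 3.09e-07). Mrpl33 rose in shPkm1 (0.34, adjusted p 0.013, and 0.0705 without shPkm1 library 2) and Mrpl13 in the shPkm2-labelled libraries (0.54, adjusted p 0.00132). Of 24 import genes, 1 rose and 15 fell in shPkm1 and 2 rose and 16 fell in the shPkm2-labelled libraries (library totals only: 4 and 13, 5 and 9; TPM: 5 and 8, 6 and 6). The number higher was 4 in shPkm1 without shScr library 1 and 1 in the shPkm2-labelled libraries without shPkm2 library 2. Hspd1, a mitochondrial chaperone, rose by 0.46 (adjusted p 0.00161) and 1.16 (adjusted p 4.73e-07), and the largest falls were in Timm8b (-1.35) and Timm10 (-1.51). Of 16 fusion and fission genes, 4 rose and 6 fell, and 5 rose and 7 fell (library totals only: 4 and 5, 7 and 5; TPM: 7 and 4, 8 and 5). Mief2, which recruits the fission enzyme, fell by 1.48 and 2.73 (adjusted p 9.47e-08 and 2.65e-10). Yme1l1 rose most in shPkm1 (0.55) and Mtfr2 in the shPkm2-labelled libraries (1.89).

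Between the Pkm hairpin groups 25.7% of all genes were higher and 27.3% lower. Of the ribosome genes 12 were higher and 6 lower in the shPkm2-labelled libraries (31 and 2 with library totals only), and with 1 library left out, any of the 6, from 6 to 20 higher and 1 to 12 lower, with Mrpl18 highest (0.94) and Mrps14 lowest (-0.66). Among import genes it was 6 and 3 (10 and 2), and with 1 library left out from 3 to 9 and 0 to 6, with Timm8b highest (0.74) and Tomm6 lowest (-0.45, lost without shPkm1 library 2 or shPkm2 library 1, adjusted p 0.0673 and 0.0842). Among fusion and fission genes it was 3 and 5 (5 and 2), and with 1 library left out from 1 to 3 and 2 to 5, with Mtfr2 highest (1.65) and Mief2 lowest (-1.25).

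**Figure D5:**
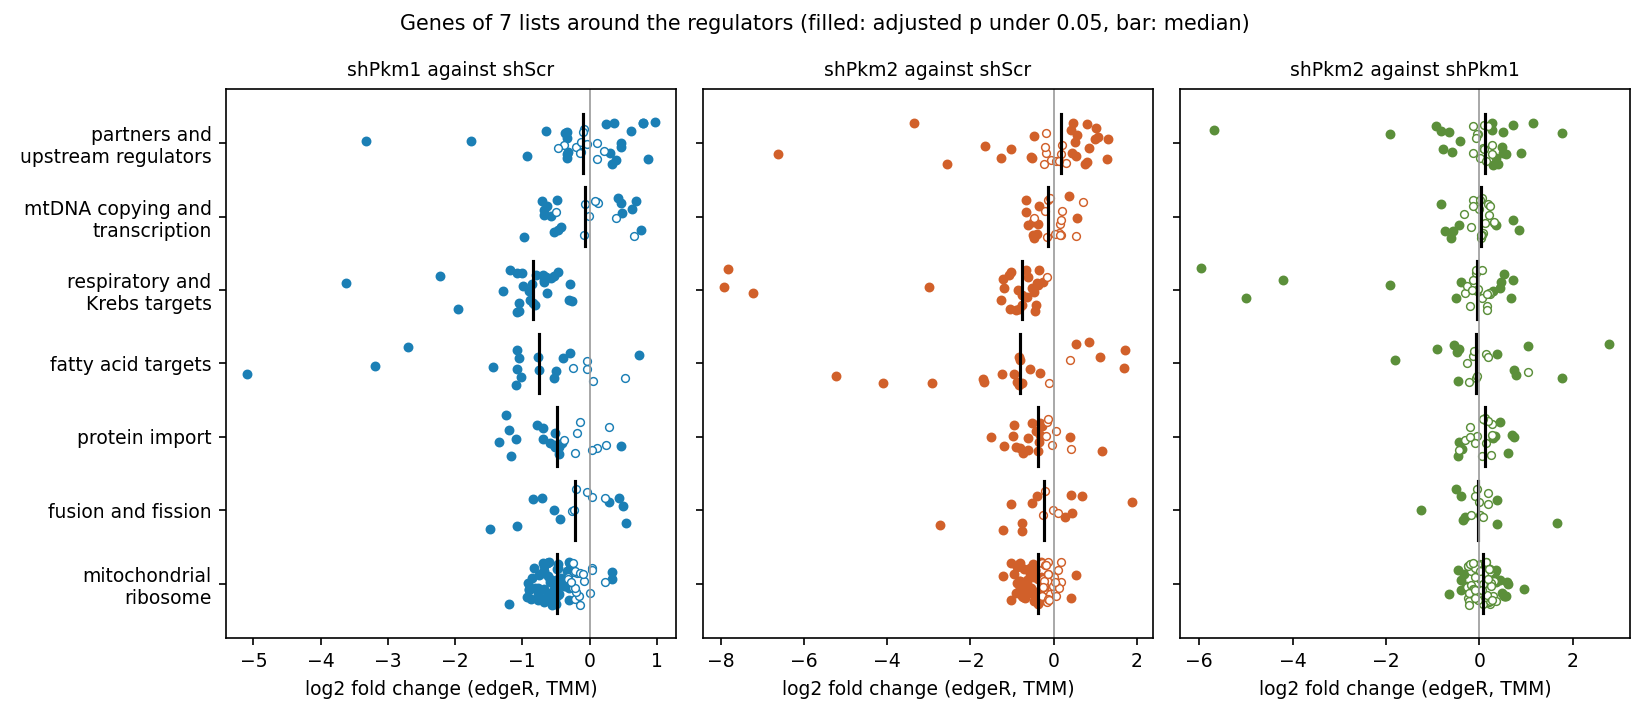
Log2 fold change (edgeR, TMM) of each tested gene of 7 lists in the 3 comparisons, with points jittered vertically, bars at medians and filled points where the adjusted p is under 0.05. Respiratory and Krebs targets lie left of 0 in both comparisons with shScr, with medians of -0.84 and -0.76, and around 0 between the Pkm hairpin groups.

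The genes whose pattern was most like that of 4 regulators were found by the root-mean-square difference of centred log2 CPM over the 6 libraries, among 10715 genes (10716 for Ppargc1a) with a mean of at least 50 counts. For Esrra they were Cox4i1 (0.031), Flad1 (0.047) and Mul1 (0.048). Cox4i1, a subunit of cytochrome c oxidase, stood at 686 and 653 CPM in shScr, 302 and 346 in shPkm1, and 274 and 309 in the shPkm2-labelled libraries. For Ppargc1b the closest were Stat5a (0.072), Ybx3 (0.097) and Ivd (0.13). For Ppargc1a they were Tbcel (0.064), Clpx (0.072) and Slc17a5 (0.078). For Pprc1, whose pattern is nearly flat, they were Ubtf (0.024), Vars (0.028) and Slx1b (0.033). This likeness rests on 3 groups of 2 libraries and describes them only.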

How the data were processed

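The 10 regulators and the gene lists were chosen with earlier results of these data known. The deposited table has 57920 RefSeq transcripts with an NCBI gene number each. Per the file headers it holds estimated counts, FPKM and TPM for each library, all made by the authors. The deposited estimated counts are not whole numbers, the deposited FPKM values take library size and transcript length into account, and the deposited TPM values sum to 999999 or 1000000 per library. The submitters' processing notes name HISAT, StringTie, Bowtie, RSEM, DESeq2 and the build mm10, without versions or roles, and strandedness is not given in the sources used here. RNA was extracted with TRIzol, per the labels' protocols. The 9 columns of group means were not used.

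Values were summed per gene (17558 genes). Symbols came from RefSeq (GRCm38.p6) and matched 17445 genes. Counts were rounded. filterByExpr, at a minimum count of 10 and a minimum total of 15, kept 12643 genes, which were scaled by TMM and tested with edgeR 4.0.16 (R 4.3.3), with 1 coefficient per group over all 6 libraries. Tests were two-sided, adjusted by Benjamini-Hochberg over all tested genes. SE is the absolute log2 fold change over the root of F, and intervals are at 95%. The floor was 3 counts, which covers counting error only. The list members named are, per comparison, the 2 largest rises and falls (1 for import, fusion and fission, and ribosome) with a call, 50 or more counts on average and groups that do not overlap. Other genes named are the 10 regulators, markers, the nearest patterns, Gabpb1 and the remaining AMPK subunits. Alternatives were other scalings, filters, DESeq2 1.42.0, limma 3.58.1 on FPKM and TPM, the replicate block and leaving out each library. Tested on simulated counts for shPkm1 against shScr, the fit called 92% of 100 genes with a log2 change of 1 and 50% of 100 with a log2 change of 0.5, and 7 of 11914 unchanged genes. The simulation changed few genes, as many up as down, with a common dispersion for all genes and groups. In the data 63.1% of all tested genes passed in this comparison, so these rates need not hold there. Figures were made with matplotlib 3.10.9.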

Additional observations from a re-analysis of the deposited data

How the results depend on the processing

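Counts of calls and the tested genes named in the text, other than markers and nearest patterns, were recomputed under 16 alternatives. The number of regulators with a call stayed between 4 and 5 in shPkm1, 3 and 6 in the shPkm2-labelled libraries and 2 and 4 between the Pkm hairpin groups. Of 381 recomputed values of single regulators 334 kept direction and side of the threshold, 8 lost a call, 16 gained one and 23 changed sign. Of 1296 values of the other named genes 1230 kept both, 31 lost a call, 23 gained one and 12 changed sign. Most of these genes were named because they had a call in these libraries, which favours keeping it. Of 1344 list counts 170 moved by more than 1.5 times. Among regulators the sign changes concerned 4 results without a call. Pprc1 in shPkm1 (-0.0021) was 0.19 with library totals only, 0.013 without the filter, 0.010 with a mean of at least 50 counts, 0.00836 with only the groups compared, 0.18, 0.20 and 0.38 on log2(FPKM + 1), log2(FPKM + 0.1) and log2(TPM + 1), and from -0.059 to 0.072 with a library left out. In the same order of scalings, Nrf1 in shPkm1 was 0.057 with library totals only and 0.049, 0.054 and 0.23 in limma. Tfam in the shPkm2-labelled libraries was 0.19, then 0.15, 0.16 and 0.28 in limma, and from -0.30 to 0.046 with a library left out. Ppargc1a there (-0.33) was 0.038, 0.12 and 0.10 in limma. Among the other genes, Cs in the shPkm2-labelled libraries was 0.16 with library totals only and 0.16, 0.16 and 0.29 in limma, and Prkab1 there was 0.27, then 0.27, 0.27 and 0.40, and from -0.16 to 0.052 with a library left out. In shPkm1, Prkab1 was 0.082, Prkab2 0.017 and Prkag2 0.046 on TPM. The cause was not tested. With the mean of at least 50 counts Ppargc1a could not be tested. The replicate number as a block left the regulators called at 4, 4 and 3. The numbers did not pair the libraries: differences between library 1 and library 2 correlated across 12643 genes at -0.0256, 0.0418 and 0.0527 between groups, so the labels share only a number. The depth leaves Ppargc1a with at most 39 counts and Ppara and Esrrg with at most 6, which limits what can be said of these 3 genes.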
